A study of Mus musculus with 4 samples.

Results

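The nuclear genes that encode the subunits of the mitochondrial respiratory complexes and of ATP synthase were followed on 4 mouse liver arrays that surround an acetaminophen overdose in mice that carry or lack YAP, which the Hippo pathway restrains and which switches on genes of growth and repair together with TEAD factors. The genes were chosen by symbol alone: every probe set annotated to a symbol beginning with Nduf, Uqcr or Atp5, or with Cox4 to Cox8, and those of Sdha, Sdhb, Sdhc, Sdhd, Cyc1 and Cycs. There were 108 such probe sets. Of these, 104 carried 1 gene and stood for 99 genes, out of 30142 genes named on the arrays, and the other 4 carried several genes. For the 4 genes with more than 1 probe set the brightest was used. Of the 99 genes, 93 had a mean level at or above the 40th percentile of all named genes (4.33 on the deposited log2 scale) and are the ones counted below. The 6 that did not were Cox6a2, Cox6b2, Cox7b2, Cox8b, Cox8c and Ndufa4l2.

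There was 1 array per group, and each held total liver RNA pooled from 3 fasted male mice. The 4 groups were YAP-KO mice 24 h after 300 mg/kg acetaminophen given into the peritoneum, wildtype mice 24 h after the same dose, YAP-KO mice at 0 h and wildtype mice at 0 h. The wildtype mice carried floxed Yap1, per the labels, while the promoter driving Cre, the deleted exons and the deleted cells are not given in the sources used here. No 24 h group without acetaminophen was analysed here, so overdose, elapsed time, handling and feeding cannot be told apart.

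Yap1 itself had log2 levels of 6.01 (YAP-KO 24 h), 8.24 (wildtype 24 h), 6.31 (YAP-KO 0 h) and 7.54 (wildtype 0 h), so it was lower on both YAP-KO arrays. The labelled tissue was borne out by the hepatocyte markers Alb, Apoa1, Apob and Ttr, which lay at the highest value an array can show (19.83 to 19.93) on all 4 arrays. None of the 99 genes was saturated in this way, and the brightest single value among them was 17.59 for Ndufb9. Because every group is 1 array, no difference between arrays has a replicate check, and each is given as a log2 difference (1 unit is 2-fold) beside the same quantity for the 18085 named genes above the same level, less those saturated on both arrays compared. Where genes are counted as higher or lower, they passed 1.5-fold, a log2 difference just above 0.58. On the deposited scale a difference of 0.58 itself did not pass. Levels are on each probe set's own scale and are not set against another gene's.

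In oxidative phosphorylation, electrons from NADH enter at complex I and those from succinate at complex II, and both pass through ubiquinone to complex III, cytochrome c and complex IV, which reduces oxygen. The proton gradient made on the way drives complex V, the ATP synthase. Most subunits are encoded in the nucleus and imported, a few are encoded by mitochondrial DNA, and hepatocytes are rich in mitochondria. A reactive metabolite of acetaminophen is known to bind mitochondrial proteins in these cells.

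At 24 h the wildtype array stood lowest for many of these genes, mostly in complexes I, II and V, and the YAP-KO array stood lowest for few. The median difference of the 93 genes, 24 h minus 0 h, was 0.10 in YAP-KO livers and -0.16 in wildtype livers, while the median of all 18085 genes was 0.07 in both genotypes. The wildtype 24 h array held the single lowest value of 51 of the 93 genes (54.8%), against 28.8% of all genes, and the YAP-KO 24 h array held the lowest value of 6 of them (6.45%), against 15.7% of all genes. The YAP-KO difference lay above the wildtype difference for 71 of the 93 (76.3%), and for 48.9% of all genes. In bulk liver RNA, fewer cells of a type and less RNA per cell cannot be told apart.

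**Figure D1:**
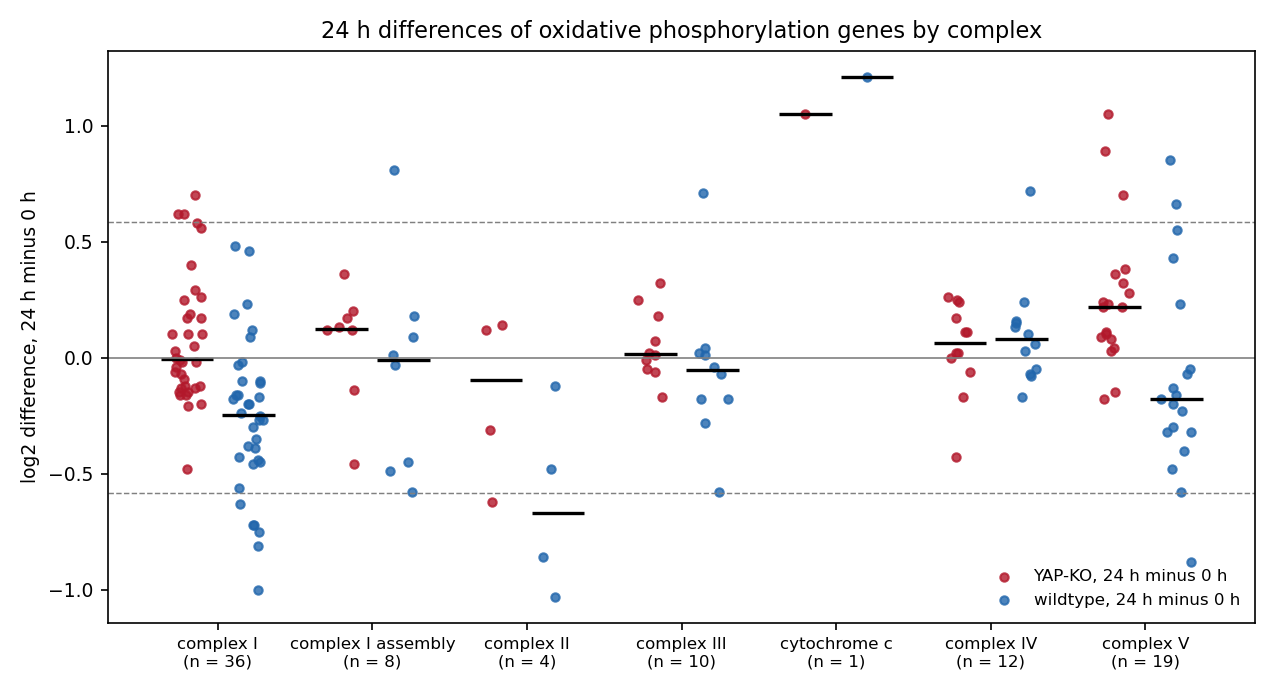
Log2 difference between 24 h and 0 h (vertical axis) of each gene, grouped by complex, with YAP-KO in red and wildtype in blue, a black bar at each median and dashed lines at 1.5-fold. The wildtype points of complexes I and II lie mostly below 0 (medians -0.24 and -0.67), and the YAP-KO points of complex V mostly above it (median 0.22).

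Few of these differences were large. In YAP-KO livers, 7 of the 93 genes were 1.5-fold higher at 24 h, where 13.7% of all genes were, and 1 was 1.5-fold lower, where 6.02% were. In wildtype livers, 6 were higher, where 23.7% of all genes were, and 10 were lower (10.8%), where 11.9% were. The share of genes 1.5-fold lower in wildtype livers was therefore near that of all genes, while the share 1.5-fold higher (6.45%) was below it, and 64 of the 93 (68.8%) lay below 0 by any amount, against 44.3% of all genes. Of the 93, 32 (34.4%) lay above 0 in YAP-KO and below 0 in wildtype livers, against 17.5% of all genes, and 3 (3.23%) did the reverse, against 13.8%. Another 30 (32.3%) were below 0 in both, against 25.8%, and 26 (28.0%) above 0 in both, against 40.6%.

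Between genotypes at 24 h, YAP-KO minus wildtype, the median was 0.13, against -0.02 for all genes. There, 7 of the 93 were 1.5-fold higher in YAP-KO, where 8.19% of all genes were, and 3 were lower, where 13.6% were. At 0 h the median was -0.09, against -0.03 for all genes. None was 1.5-fold higher in YAP-KO at 0 h, where 3.44% of all genes were, and 1 was lower, the pseudogene Atp5c1-ps, where 4.78% were. The difference between the 24 h responses, YAP-KO minus wildtype, had a median of 0.19, against -0.01, with 14 genes 1.5-fold above (13.7% of all genes) and 3 below (16.6% of all genes). These comparisons share arrays and do not bear on each other independently.

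The deposited arrays do not share one centre, and the wildtype 24 h median of these genes moved with the scaling, though below that of all genes each time. It was -0.01 when arrays were centred on their probe-set medians, against 0.22 for all genes, -0.34 after quantile normalization, against 0.02, and -0.44 when arrays were centred on the genes kept, against -0.21. The 10 genes 1.5-fold lower in wildtype livers became 6 (6.45%), 24 (25.8%) and 29 (31.2%) under these scalings, in that order, where 9.05%, 14.2% and 22.6% of all genes were lower. The share below 0 by any amount, 68.8% as deposited, became 52.7%, 81.7% and 89.2%, against 32.4%, 47.7% and 62.8% of all genes. Counts of the array holding a gene's lowest value were made on the deposited scale alone. The YAP-KO median changed sign, as given in the closing section. It was -0.01 after quantile normalization, against 0.06 for all genes. With arrays centred on the genes kept it was -0.05, against -0.08 for all genes.

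**Figure D2:**
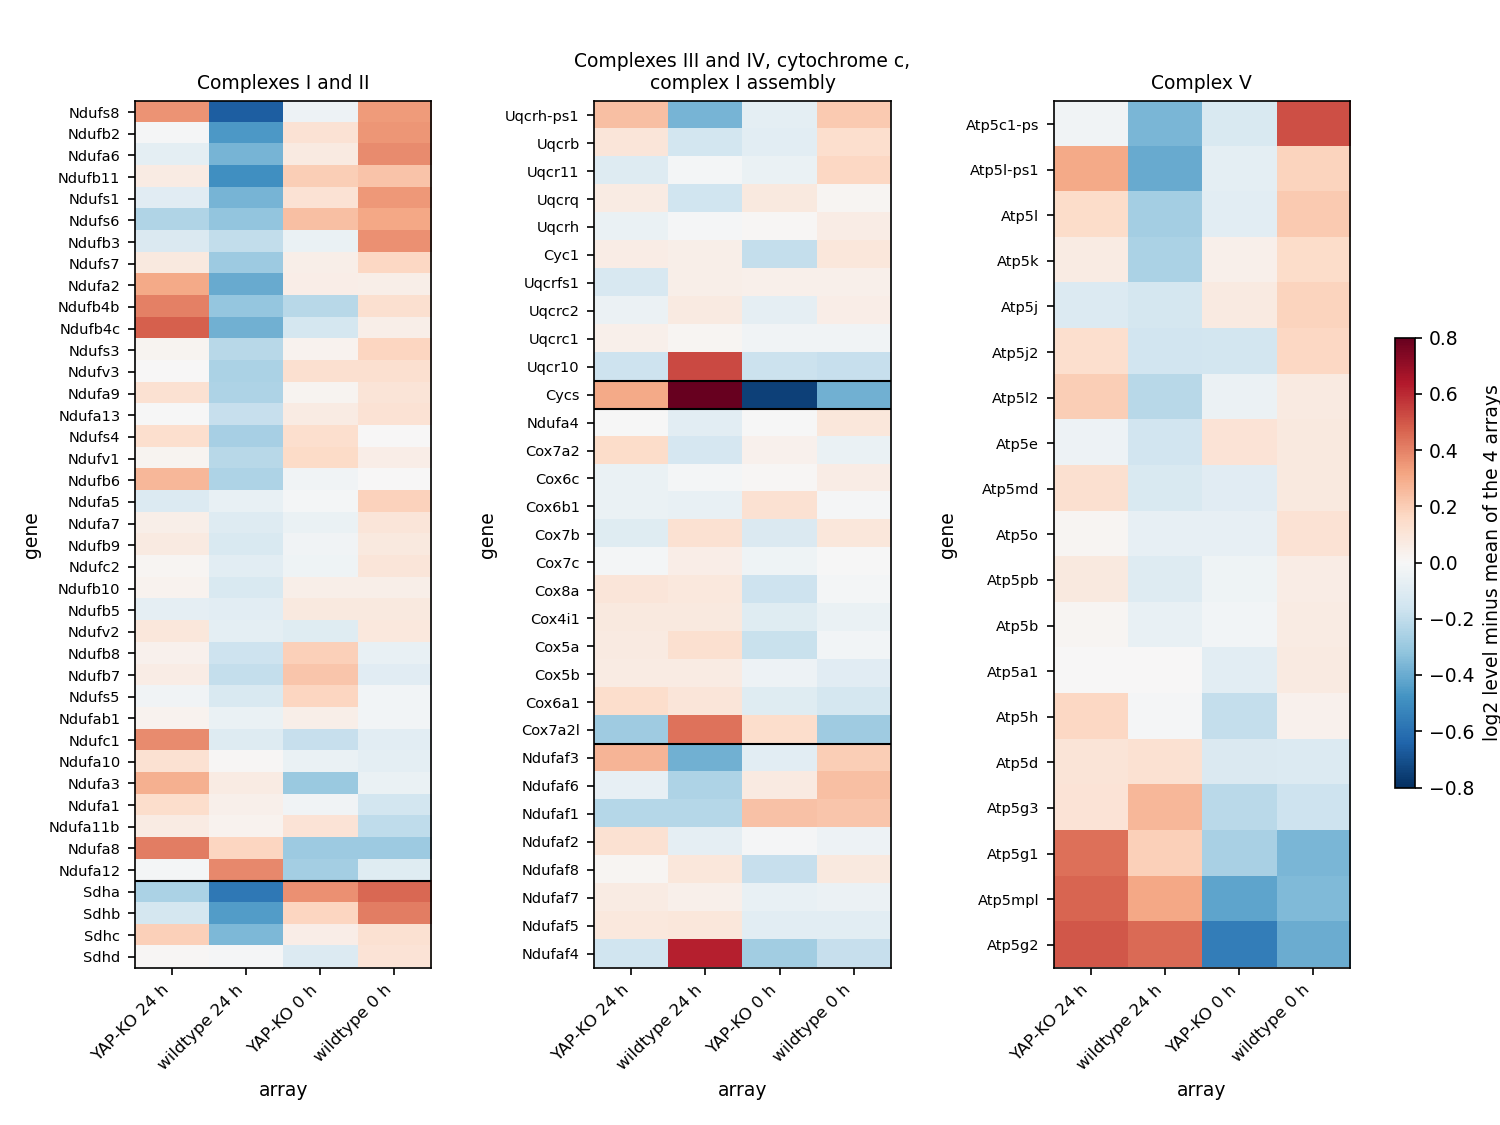
Log2 level of each gene on each array minus its mean over the 4 arrays (colour, limits -0.8 and 0.8), with genes in rows ordered by the wildtype 24 h difference within a complex and arrays in columns. The wildtype 24 h column is blue through most of complexes I and II and the upper rows of complex V, while Cycs, Uqcr10, Cox7a2l, Ndufaf4 and the lower rows of complex V are red there.

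Promoters are shown for 5 genes chosen after their values were seen. Sdha and Ndufs8 had the lowest wildtype 24 h differences. Cycs and Atp5g2 had the highest in both genotypes on the probe sets used, and Atp5g1 is another gene of the protein that Atp5g2 encodes. The Cycs probe set used is placed by its identifier on chromosome 19, while the promoter shown is that of the gene on chromosome 6. The Cycs probe set on chromosome 6 differed by 0.45 in YAP-KO and 1.05 in wildtype livers. Each sequence below holds the 250 bases before the gene's start, 5′ to 3′ on the gene's strand, from RefSeq on GRCm38.p6. Capitals mark matches to the NRF1 motif, and there was no match to any of the 4 motifs in the printed bases of Ndufs8, Cycs and Atp5g1.
Sdha, chr13:74350241-74350490, minus strand: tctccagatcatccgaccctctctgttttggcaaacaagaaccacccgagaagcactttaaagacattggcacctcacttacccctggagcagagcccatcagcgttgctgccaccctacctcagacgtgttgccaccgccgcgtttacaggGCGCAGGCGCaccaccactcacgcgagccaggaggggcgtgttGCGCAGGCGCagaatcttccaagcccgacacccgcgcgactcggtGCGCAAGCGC
Ndufs8, chr19:3912775-3913024, minus strand: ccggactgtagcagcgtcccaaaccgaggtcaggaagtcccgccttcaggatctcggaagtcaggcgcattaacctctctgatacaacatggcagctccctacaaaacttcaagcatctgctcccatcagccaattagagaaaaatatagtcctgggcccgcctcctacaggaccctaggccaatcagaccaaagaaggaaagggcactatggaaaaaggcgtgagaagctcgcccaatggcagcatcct
Cycs, chr6:50566570-50566819, minus strand: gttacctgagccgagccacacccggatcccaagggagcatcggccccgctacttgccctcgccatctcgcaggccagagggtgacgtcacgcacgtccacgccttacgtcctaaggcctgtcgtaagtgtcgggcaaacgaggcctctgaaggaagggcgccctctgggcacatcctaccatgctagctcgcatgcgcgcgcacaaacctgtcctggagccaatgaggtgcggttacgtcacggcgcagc
Atp5g2, chr15:102671048-102671297, minus strand: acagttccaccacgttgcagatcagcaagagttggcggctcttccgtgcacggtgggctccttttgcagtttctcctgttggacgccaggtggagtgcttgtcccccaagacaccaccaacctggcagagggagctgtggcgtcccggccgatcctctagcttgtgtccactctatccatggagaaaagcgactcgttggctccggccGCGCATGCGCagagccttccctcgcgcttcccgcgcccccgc
Atp5g1, chr11:96075632-96075881, minus strand: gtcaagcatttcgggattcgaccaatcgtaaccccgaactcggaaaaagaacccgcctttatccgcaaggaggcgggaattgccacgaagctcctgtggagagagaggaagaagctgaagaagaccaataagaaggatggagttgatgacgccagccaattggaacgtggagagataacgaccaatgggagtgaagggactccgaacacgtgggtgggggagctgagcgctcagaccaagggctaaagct
The 4 motifs were GCGCA, any base, then GCGC (NRF1, a regulator of respiratory genes), CCGGAAG (the core bound by ETS factors such as GABP), AAGATGGCG (YY1) and TCAAGGTCA (estrogen-related receptors), each read on both strands over a window of 250 bases before to 50 after the start. Sdha held 3 NRF1 matches, which begin at positions -98, -55 and -10 from its start, and Atp5g2 held 1, which begins at position -42 and reads as a match on both strands. Ndufs8 had an ETS match beginning at position 16 from its start, beyond the printed bases.

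Promoters were matched by gene for 76 of the 99 genes. Of these, 16 (21.1%) held the NRF1 letters, against 10.2% of the 10641 genes kept on the arrays that have a promoter entry and 5.19% of all 27025 genes with one. The ETS letters were in 19 (25%), against 17.8% and 9.93%. The YY1 letters were in 9 (11.8%), against 3.12% and 1.64%, and the TCAAGGTCA letters in Sdhd and Atp5g3 (2.63%), against 0.338% and 0.466%. Any of the first 3 motifs occurred in 37 of the 76 (48.7%), against 27.6% and 15.1%. By complex that count was 13 of 31 genes in complex I, 3 of 3 in complex II, 3 of 5 in complex III, 3 of 10 in complex IV and 10 of 14 in complex V. A match describes letters in a window and is neither a bound site nor a cause, and the absence of a match says nothing of the factor.

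Complex I, the NADH dehydrogenase, had 36 genes and was low on the wildtype 24 h array through most of its parts. Its median difference at 24 h was 0.00 in YAP-KO livers and -0.24 in wildtype livers, and the wildtype median stayed below 0 under each scaling (-0.10 to -0.53). Of the 36, 3 were 1.5-fold higher (8.33%) and none lower in YAP-KO livers, where 13.7% and 6.02% of all genes were. Those 3 were Ndufa8 (0.70) and the gene copies Ndufb4b and Ndufb4c (0.62 each). In wildtype livers none was higher and 6 were lower (16.7%), where 23.7% and 11.9% of all genes were. The wildtype 24 h array held the lowest value of 27 (75%), against 28.8% of all genes. At 24 h YAP-KO lay above wildtype in 34 of 36, copies included, with a median of 0.23, and in 8426 of 18023 genes in all.

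The nuclear core subunits, common to all forms of the enzyme, include those that carry the flavin and the iron-sulfur centres. Of them 6 were measured, and all 6 were below 0 in wildtype livers, with a median of -0.43, while in YAP-KO livers 3 were below 0 and the median was 0.01. Ndufs8, an iron-sulfur subunit on the electron path to ubiquinone, had log2 levels of 13.06 (YAP-KO 24 h), 12.04 (wildtype 24 h), 12.66 (YAP-KO 0 h) and 13.04 (wildtype 0 h). Only the wildtype 24 h array was low, and the differences at 24 h were 0.40 in YAP-KO livers and -1.0 in wildtype livers. Its 1.40 gap between the responses was the largest of the 93 genes. Ndufs1, which holds iron-sulfur centres further up that path, read 10.65, 10.37, 10.86 and 11.09 in the same order of arrays, so both 24 h arrays lay below both 0 h arrays. Its differences were -0.21 in YAP-KO and -0.72 in wildtype livers. Ndufs7 (0.03 and -0.46), Ndufs3 (-0.01 and -0.39), Ndufv2 (0.19 and -0.16) and the NADH-binding Ndufv1 (-0.13 and -0.27) showed smaller differences in YAP-KO and wildtype livers, in that order within each pair.

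The other subunits, called accessory, surround the core. The 27 of them that are not copies of another gene had a wildtype median of -0.20, with 22 below 0. At 24 h YAP-KO lay above wildtype in 25 of the 27. Ndufb2, a small subunit of the membrane arm, read 6.61 (YAP-KO 24 h), 6.16 (wildtype 24 h), 6.73 (YAP-KO 0 h) and 6.97 (wildtype 0 h). Ndufa6, which sits near the ubiquinone site with the acyl carrier protein, read 10.01, 9.72, 10.16 and 10.47 in that order. Ndufb11, of the membrane arm, read 9.92, 9.36, 10.05 and 10.08. For each of these 3 the wildtype 24 h array was the lowest, with wildtype differences of -0.81, -0.75 and -0.72 against YAP-KO differences between -0.12 and -0.15.

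Ndufs6, a zinc-binding subunit needed for a late step of assembly, differed by -0.48 in YAP-KO and -0.63 in wildtype livers, with levels of 10.48 on the YAP-KO 24 h array and 10.40 on the wildtype 24 h array, against 10.96 on the YAP-KO 0 h array and 11.03 on the wildtype 0 h array. The annotation gives its probe set the single symbol Ndufs6 but also the identifier of the pseudogene Ndufs6b, so the probes may read both. Ndufa8 went the other way in both: it read 10.40 and 10.16 on the YAP-KO and wildtype 24 h arrays, against 9.70 on both 0 h arrays, which is 0.70 and 0.46 higher. Ndufa12, of the arm that projects into the matrix, read 10.16, 10.56, 9.90 and 10.08, with differences of 0.26 in YAP-KO and 0.48 in wildtype livers. It had the lowest YAP-KO minus wildtype value of complex I at 24 h (-0.40), and the other of the 36 below 0 there was Ndufa5 (-0.05). Ndufa2 was 0.25 higher in YAP-KO and 0.45 lower in wildtype livers at 24 h. Ndufb9, the brightest, differed by 0.10 and -0.20, and Ndufab1, the mitochondrial acyl carrier protein, by -0.02 and -0.03.

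**Figure D3:**
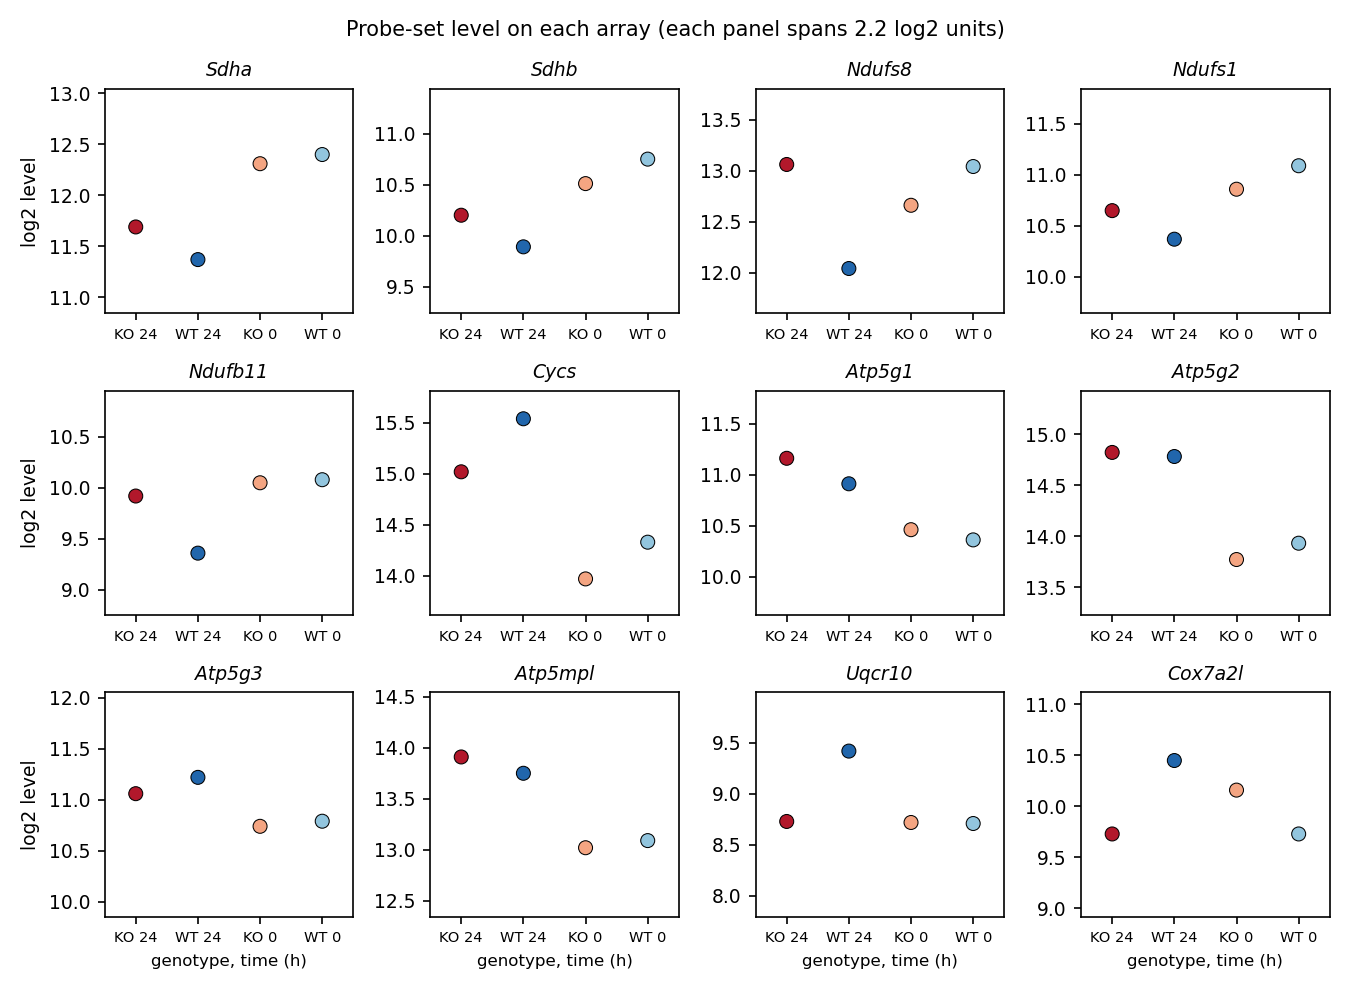
Log2 level of 12 genes on each array (horizontal axis: genotype and time in hours, KO for YAP-KO and WT for wildtype), each panel spanning the same log2 range. Sdha, Sdhb and Ndufs1 are low on both 24 h arrays, Ndufs8 and Ndufb11 are low on the wildtype 24 h array, Cycs and the Atp5g genes are high on both 24 h arrays, and Uqcr10 and Cox7a2l are high on the wildtype 24 h array.

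Of the 8 complex I assembly factors named Ndufaf, none passed 1.5-fold in YAP-KO livers and 1 was higher in wildtype livers, with medians of 0.12 and -0.01. Of all genes, 13.7% were higher in YAP-KO and 23.7% in wildtype livers. The proteins of Ndufaf3 and Ndufaf4 work as partners early in assembly in human cells, and in wildtype livers the 2 genes differed in opposite directions (-0.58 for Ndufaf3 and 0.81 for Ndufaf4), while in YAP-KO livers they differed by 0.36 and 0.12. Ndufaf4 read 8.69 (YAP-KO 24 h), 9.47 (wildtype 24 h), 8.57 (YAP-KO 0 h) and 8.66 (wildtype 0 h), so only the wildtype 24 h array was high. Ndufaf3 read 6.35, 5.69, 5.99 and 6.27 in that order, and the wildtype 24 h array was its lowest. Ndufaf1, which works on the membrane arm, was lower at 24 h by nearly the same amount in both, at -0.46 in YAP-KO and -0.45 in wildtype livers, and Ndufaf6 differed by -0.14 and -0.49. The remaining 4 differed by 0.20 or less in either genotype. Dmac2, also an assembly factor of complex I and listed on the arrays under its older name Atp5sl, differed by -0.47 and -0.37.

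Complex II, succinate dehydrogenase, is the one complex encoded wholly in the nucleus, and its wildtype median of -0.67 was the lowest of the 5 (from -0.52 to -0.95 under the scalings tried). In YAP-KO livers it was -0.10. Sdha, the flavoprotein that oxidises succinate, had log2 levels of 11.69 on the YAP-KO 24 h array and 11.37 on the wildtype 24 h array, against 12.31 on the YAP-KO 0 h array and 12.40 on the wildtype 0 h array. Both 24 h arrays were low, with differences of -0.62 in YAP-KO and -1.03 in wildtype livers, and these were the lowest of all 93 genes in both genotypes. Sdhb, the iron-sulfur subunit that receives its electrons, read 10.20, 9.89, 10.51 and 10.75 in the same order of arrays, differing by -0.31 and -0.86.

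The membrane anchors, which hold the ubiquinone site, differed less. Sdhc read 10.58 (YAP-KO 24 h), 10.03 (wildtype 24 h), 10.44 (YAP-KO 0 h) and 10.51 (wildtype 0 h), low on the wildtype 24 h array alone. Sdhd read 12.73, 12.71, 12.61 and 12.83 in that order, within 0.22 over the 4 arrays. All 4 genes lay above wildtype in YAP-KO livers at 24 h (median 0.32) and below it at 0 h (median -0.16). Of all genes, 8426 of 18023 lay above wildtype at 24 h and 9615 of 18015 below it at 0 h. No other complex had all of its genes on one side in both of these comparisons between genotypes.

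Complex III passes electrons from ubiquinol to cytochrome c. The median of its 10 genes was 0.02 in YAP-KO and -0.06 in wildtype livers, and the wildtype value was 0.10 when arrays were centred on probe-set medians, -0.16 after quantile normalization and -0.33 when arrays were centred on the genes kept. The core proteins Uqcrc1 (0.07 and 0.04) and Uqcrc2 (0.02 and 0.02), the Rieske protein Uqcrfs1 (-0.17 and 0.01) and cytochrome c1, Cyc1 (0.25 and -0.04), were all within 0.25 of their 0 h level in YAP-KO and wildtype livers. Uqcr10, a small subunit, differed more in wildtype livers, with levels of 8.73 (YAP-KO 24 h), 9.42 (wildtype 24 h), 8.72 (YAP-KO 0 h) and 8.71 (wildtype 0 h). The wildtype 24 h array stood 0.71 above its 0 h array, and the other 3 arrays lay within 0.02 of each other. Uqcrb was 0.18 higher in YAP-KO and 0.28 lower in wildtype livers, and the pseudogene Uqcrh-ps1 differed by 0.32 and -0.58.

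Cycs, cytochrome c, which carries electrons between complexes III and IV and is released in cell death, was among the highest differences in both genotypes. Its brightest probe set read 15.02 on the YAP-KO 24 h array and 15.54 on the wildtype 24 h array, against 13.97 on the YAP-KO 0 h array and 14.33 on the wildtype 0 h array. These differences are 1.05 and 1.21. That probe set is placed on chromosome 19 by its identifier, while the Cycs gene lies on chromosome 6. The probe set on chromosome 6 read 12.21 and 12.79 at 24 h in YAP-KO and wildtype livers, against 11.76 and 11.74 at 0 h, so it was also high at 24 h, by 0.45 and 1.05. How far the 2 probe sets read the same transcripts was not tested.

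Complex IV is cytochrome c oxidase. Over 12 genes, Ndufa4 included since its protein is a subunit of this complex, the median was 0.06 in YAP-KO and 0.08 in wildtype livers, and the wildtype value was 0.23 when arrays were centred on probe-set medians, -0.10 after quantile normalization and -0.20 when arrays were centred on the genes kept. Apart from Cox7a2l, the 24 h differences ran from -0.17 (Cox6b1) to 0.26 (Cox8a) in YAP-KO livers and from -0.17 (Ndufa4) to 0.24 (Cox6a1) in wildtype livers. Among the genes that make up that range are the liver forms Cox4i1 (0.17 and 0.13), Cox6a1 (0.24 and 0.24), Cox7a2 (0.11 and -0.08) and Cox8a (0.26 and 0.10). Cox5a and Cox5b, which flank the catalytic core, differed by 0.25 and 0.15 and by 0.11 and 0.16.

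Cox7a2l, whose protein bridges complexes III and IV in supercomplexes, stood apart. It read 9.73 (YAP-KO 24 h), 10.45 (wildtype 24 h), 10.16 (YAP-KO 0 h) and 9.73 (wildtype 0 h). The genotypes crossed: YAP-KO was 0.43 lower at 24 h than at 0 h, wildtype was 0.72 higher, and the difference between the responses was -1.15, the lowest of the 93 genes.

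The complex IV forms of muscle, testis and other tissues were at or near the low end. Cox7a1, the heart and muscle form of subunit 7a, read 5.24 (YAP-KO 24 h), 5.11 (wildtype 24 h), 5.67 (YAP-KO 0 h) and 5.83 (wildtype 0 h), lower at 24 h by 0.43 in YAP-KO and 0.72 in wildtype livers. Cox4i2, the lung form of subunit 4, read 5.0, 4.99, 4.89 and 4.89. The other 5 and Ndufa4l2, a paralog of Ndufa4 known from hypoxia, had values between 3.28 (Cox8b) and 4.55 (Cox6a2). Of 10 muscle markers, 5 passed the level filter, and their median was 4.57, 4.67, 4.74 and 4.63 on the YAP-KO 24 h, wildtype 24 h, YAP-KO 0 h and wildtype 0 h arrays.

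Complex V, the ATP synthase, split by subunit. Its 19 genes had a median of 0.22 in YAP-KO and -0.18 in wildtype livers (0.03 to 0.32 and -0.46 to -0.03 over the scalings). At 24 h, YAP-KO lay above wildtype in 16 of 19, pseudogenes and copies included, and in 8426 of 18023 genes in all. The catalytic subunits of the F1 head, Atp5a1 (0.09 and -0.07) and Atp5b (0.04 and -0.13), differed little in YAP-KO and wildtype livers.

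The genes of subunit c, the ring that turns in the membrane, lay above their 0 h level at 24 h in both genotypes. Atp5g2 passed 1.5-fold in both, Atp5g1 in YAP-KO livers alone and Atp5g3 in neither. The mature protein is the same for Atp5g1, Atp5g2 and Atp5g3. Atp5g2 read 14.82 (YAP-KO 24 h), 14.78 (wildtype 24 h), 13.77 (YAP-KO 0 h) and 13.93 (wildtype 0 h). Atp5g1 read 11.16, 10.91, 10.46 and 10.36 in that order, and Atp5g3 read 11.06, 11.22, 10.74 and 10.79. For all 3 genes both 24 h arrays lay above both 0 h arrays, by 1.05, 0.70 and 0.32 in YAP-KO livers and by 0.85, 0.55 and 0.43 in wildtype livers. A further Atp5g2 probe set, placed on chromosome 7 while the gene is on chromosome 15, was 0.82 and 0.54 higher. Atp5mpl, a small proteolipid bound to the membrane part, read 13.91 and 13.75 at 24 h in YAP-KO and wildtype livers, against 13.02 and 13.09 at 0 h, which is 0.89 and 0.66 higher.

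Subunits of the stalks and the dimer interface differed one by one. Atp5k (subunit e) differed by 0.03 in YAP-KO and -0.40 in wildtype livers, Atp5j (coupling factor 6) by -0.18 and -0.32, Atp5pb (subunit b) by 0.11 and -0.16, Atp5o, which joins the stalk to the head, by 0.08 and -0.18, and Atp5d (delta) by 0.22 and 0.23. Atp5l, subunit g, read 14.16 (YAP-KO 24 h), 13.74 (wildtype 24 h), 13.93 (YAP-KO 0 h) and 14.22 (wildtype 0 h) on its brightest probe set, which is placed on chromosome 5. Its brighter probe set on the gene's own chromosome 9 read 8.08, 7.83, 7.89 and 8.05, and on both the wildtype 24 h array was the lowest. Atpif1, the inhibitor that stops ATP synthase from running in reverse, was not chosen by the symbol rule, and it was 0.56 higher in YAP-KO and 0.46 higher in wildtype livers.

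**Figure D4:**
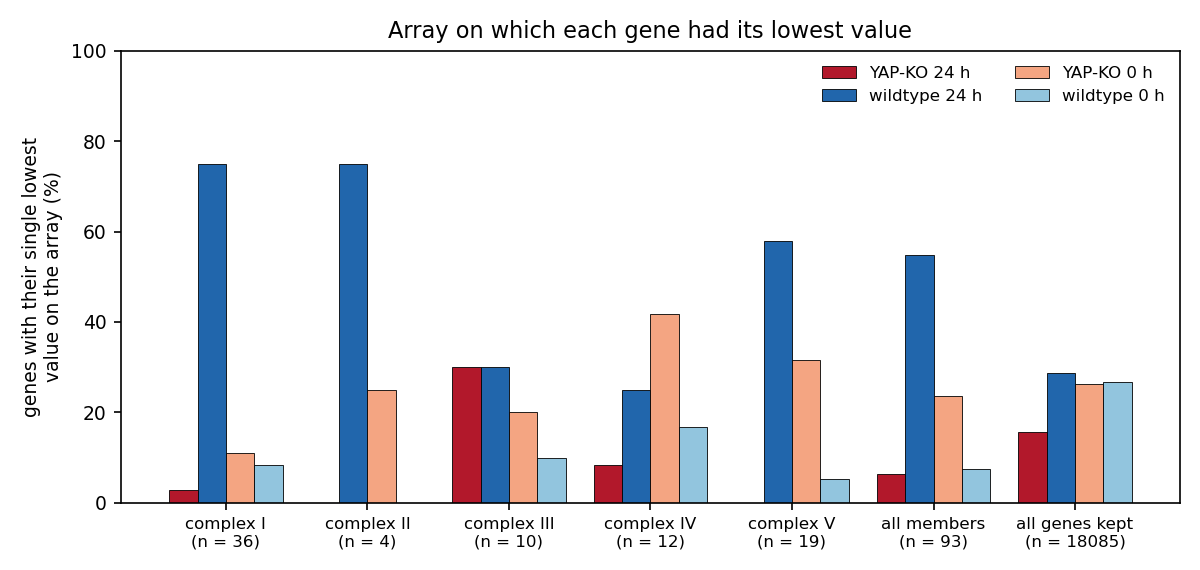
Percentage of genes (vertical axis, from 0 to 100) whose single lowest value lay on each array, by complex, for the 93 genes and for all genes kept. The wildtype 24 h bar reaches 75% for complexes I and II and 57.9% for complex V, against 30.0% for complex III, 25% for complex IV and 28.8% for all genes.

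Of the genes counted, 7 are pseudogenes or further copies of a family member (Atp5c1-ps, Atp5l-ps1, Atp5l2, Uqcrh-ps1, Ndufa11b, Ndufb4b and Ndufb4c), whose probes may also read the parent transcript. The difference between the responses had a median of 0.96 over these 7 and 0.17 over the other 86. At 24 h all 7 lay above wildtype in YAP-KO livers, where 8426 of 18023 genes in all did. Ndufb4c read 11.14 (YAP-KO 24 h), 10.28 (wildtype 24 h), 10.52 (YAP-KO 0 h) and 10.71 (wildtype 0 h), and Ndufb4b read 14.65, 13.94, 14.03 and 14.38, with YAP-KO 24 h highest and wildtype 24 h lowest in both. Atp5c1-ps read 7.5, 7.16, 7.40 and 8.04, with wildtype 0 h the highest. Without these 7 genes, 3 members in place of 7 were 1.5-fold higher in YAP-KO at 24 h, where 8.19% of all genes were. A response difference 1.5-fold above 0 was seen in 9 in place of 14, where 13.7% of all genes had one. The median at 24 h was 0.11 in place of 0.13. Ndufb4 and Ndufa11 themselves were present only on probe sets shared with Ndufb4c (listed as Gm3244) and with Ndufa11b, and as readings of those shared probe sets the wildtype 24 h values were also the lowest, at 7.05 and 6.84.

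Before the overdose the differences between genotypes were small, though 64 of the 93 genes (68.8%) lay below 0 in YAP-KO minus wildtype, against 53.4% of all genes. The YAP-KO minus wildtype medians at 0 h were -0.08 for complex I, -0.16 for II, -0.08 for III, -0.04 for IV and -0.12 for V. In complex I the lowest values were those of Ndufb3 (-0.42), Ndufs8 (-0.38) and Ndufb4b (-0.35), and the highest those of Ndufa11b and Ndufb7 (0.31 each) and Ndufb8 (0.25). Cox7a2l had the highest value of the 93 genes (0.43) and Atp5c1-ps the lowest (-0.64). In complex V, 17 of 19 genes lay below 0, among them Atp5j2 (-0.31) and Atp5l (-0.29).

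Effects common to both genotypes could be tested in 1 way, with limma and a model in which genotype and time add up, which leaves 1 residual degree of freedom. None of the 93 genes was called for time, nor was any of the 18085 (0%), at a Benjamini-Hochberg adjusted p of 0.05. Among the 93 genes the smallest adjusted p in this limma fit was 0.283, for Cycs and Atp5g2, with time effects of 1.13 and 0.95. At an unadjusted p of 0.05, 7 of the 93 passed (7.53%), against 2789 of all genes (15.4%): Cycs, Atp5g2, Atp5mpl, Sdha, Atp5g1, Ndufa8 and Ndufs6. For genotype none of the 18085 was called either (0%), and at an unadjusted p of 0.05 none of the 93 and 425 of all genes passed, with a smallest limma adjusted p among the 93 of 0.997. Genes that respond differently in the genotypes, such as Ndufs8 and Cox7a2l, have large errors in this fit. Cycs entered it with the probe set placed on chromosome 19.

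The mitochondrially encoded subunits could not be followed with these probe sets. The arrays held 5 of them. ND3 was saturated, and ND2, COX1 and COX2 differed between arrays by exactly the amounts by which the array maxima differed (0.05 in YAP-KO and 0.07 in wildtype livers), so they carry no measured difference. ND6, a complex I subunit, read 15.87 (YAP-KO 24 h), 16.22 (wildtype 24 h), 16.11 (YAP-KO 0 h) and 15.81 (wildtype 0 h), highest on the wildtype 24 h array. None of the 93 nuclear genes followed the maxima in this way, within 0.02.

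Genes of other mitochondrial functions differed from list to list. Over 16 carriers, porins and import proteins the median was 0.34 in YAP-KO and 0.66 in wildtype livers. Of them, 5 were higher and 1 lower in YAP-KO livers, where 13.7% and 6.02% of all genes were. In wildtype livers 9 were higher and 2 lower, where 23.7% and 11.9% of all genes were. Tomm20, a receptor of the outer membrane import pore, read 9.06 (YAP-KO 24 h), 10.59 (wildtype 24 h), 8.73 (YAP-KO 0 h) and 8.87 (wildtype 0 h), and only the wildtype 24 h array was clearly high. The porin Vdac2 differed by 0.65 in YAP-KO and 1.69 in wildtype livers, the import pore Tomm40 by 0.65 and 1.49, and the aspartate and glutamate carrier Slc25a13 by -0.44 and -1.24. At 24 h none of the 16 was 1.5-fold higher and 5 were lower (31.2%) in YAP-KO than in wildtype livers, where 8.19% and 13.6% of all genes were.

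Of 33 assembly factors outside the symbol rule, 4 were higher (12.1%) and none lower in YAP-KO livers (median 0.16), where 13.7% and 6.02% of all genes were. In wildtype livers 4 were higher (12.1%) and 3 lower (9.09%), with a median of 0.00, where 23.7% and 11.9% of all genes were. None of these shares exceeded that of all genes. Those lower in wildtype included the complex I factors Timmdc1 (0.39 in YAP-KO, -0.67 in wildtype) and Tmem126b (-0.09 and -0.83) and the complex IV factor Surf1 (0.09 and -0.67). Cox10, which makes heme for complex IV, was 0.16 and 1.22 higher. The complex II factor Sdhaf1 was 1.05 higher in YAP-KO livers and 0.15 lower in wildtype livers.

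Among 16 regulators of mitochondrial gene expression, 1 was higher (6.25%) and none lower in YAP-KO livers, where 13.7% and 6.02% of all genes were. In wildtype livers 3 were higher and 3 lower (18.8% each), where 23.7% and 11.9% of all genes were. Ppara, a nuclear receptor of fatty acid oxidation genes, read 10.78 (YAP-KO 24 h), 9.95 (wildtype 24 h), 11.11 (YAP-KO 0 h) and 11.81 (wildtype 0 h), lowest on the wildtype 24 h array. The coactivator Ppargc1a read 7.94, 7.70, 7.45 and 8.60, with wildtype 0 h the highest, and differed by 0.49 in YAP-KO and -0.90 in wildtype livers. Its relative Pprc1 went the other way in wildtype livers (-0.02 and 1.35), as did the genes of the factors whose motifs are given above, Nrf1 (-0.01 and 0.64) and Gabpb1, a subunit of GABP (-0.25 and 0.68). Yy1 differed by -0.56 and -0.25.

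**Figure D5:**
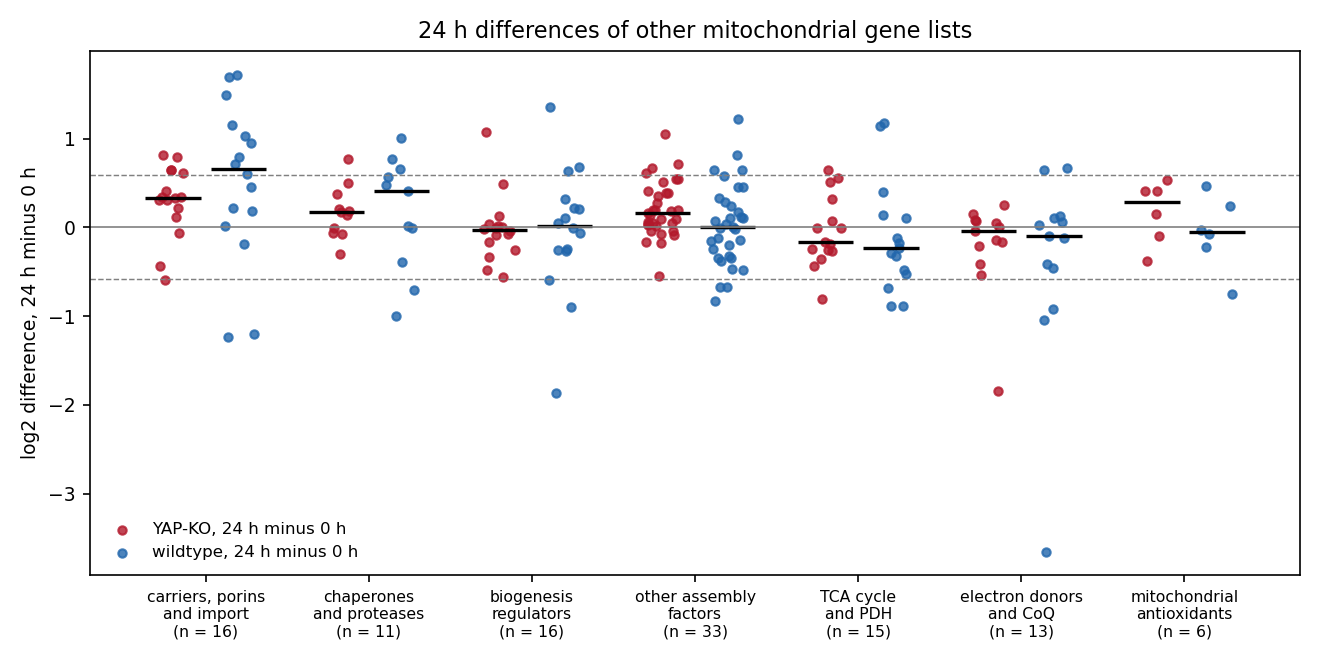
Log2 difference between 24 h and 0 h (vertical axis) of single genes in 7 other mitochondrial gene lists, with YAP-KO in red and wildtype in blue, black bars at the medians and dashed lines at 1.5-fold. Carriers, porins and import proteins lie highest in wildtype (median 0.66), and Coq8a is the lowest point in both genotypes (-1.84 and -3.65).

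Markers of other cells moved over the same arrays. The 9 monocyte and macrophage markers measured had a median level of 7.77 (YAP-KO 24 h), 8.46 (wildtype 24 h), 5.74 (YAP-KO 0 h) and 6.26 (wildtype 0 h). Of the 9, 7 were 1.5-fold higher in YAP-KO and 8 in wildtype livers, where 13.7% and 23.7% of all genes were. Of 9 neutrophil markers 6 passed the level filter, with a median of 6.04, 7.64, 5.76 and 5.48 in that order. S100a8, S100a9 and Retnlg were high on the wildtype 24 h array (8.78 to 10.06). Ly6g and Camp were lower in wildtype livers at 24 h (-0.63 and -0.65), and Mpo, Elane and Ltf stayed below the filter on average. The counts of the 6 were 3 higher and none lower in YAP-KO livers, where 13.7% and 6.02% of all genes were. In wildtype livers they were 3 higher and 2 lower, where 23.7% and 11.9% of all genes were. Median differences in YAP-KO and wildtype livers were 0.18 and 1.34 for Kupffer, 0.38 and 0.48 for endothelial, 0.50 and 0.75 for stellate, -0.06 and 0.02 for biliary and -0.51 and -0.23 for the 2 erythroid markers measured. Members of a list could go opposite ways. The erythroid markers were Alas2 (-1.86 and -2.24) and Tfrc (0.84 and 1.79). Sox9 stood above the other biliary markers (1.47 and 2.53), and C6 was the lowest Kupffer marker (-1.26 and -2.99). Hnf4a, the hepatocyte factor below saturation, read 11.64 and 11.39 at 24 h in YAP-KO and wildtype livers, against 13.09 and 12.29 at 0 h. Among the hepatocyte markers only Hnf4a and Cyp3a11 were below saturation on all 4 arrays. In wildtype livers they lay below their 0 h level, by -0.90 and -0.34. At 24 h they lay above wildtype in YAP-KO livers, by 0.25 and 0.08. Cyp3a11 read 19.42 on the YAP-KO 24 h array and 19.34 on the wildtype 24 h array, near saturation. Cyp2e1 and Tat read 19.38 and 19.30 on the wildtype 24 h array, but 19.87 and 19.88, at saturation, on the YAP-KO 24 h array. They were also saturated on both 0 h arrays, so the size of their differences is not measured. Their direction was fixed in advance, because a gene saturated on every other array can only read lower on the wildtype 24 h array. In YAP-KO livers only Hnf4a (-1.45) and Cyp3a11 (-0.07) could be compared with 0 h, and both were lower (median -0.76). The part of cell composition in the differences of the respiratory genes was not tested.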

How the data were processed

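Liver RNA was biotin-labelled (GeneChip WT Plus kit) and read on 4 arrays of 1 colour, per the labels' protocols. The values the authors deposited were taken as log2, judging by the range they span. The background correction, summarisation and normalization are not given in the sources used here. Array medians over 65956 probe sets ran from 4.32 to 4.47, and no detection call was used, so array number and an unknown floor limit the precision. A single array per group gives no replicate error, and variation among pooled mice is hidden.

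Gene names came from the platform annotation, with symbols updated by Entrez identifier to RefSeq, which renamed 6 of the genes described here. Of all probe sets, 30604 carried 1 gene, 2146 several and 33206 none. Probe sets with several genes gave no gene value, and the brightest probe set stood for a gene. By identifier, 99% of 30294 probe sets lay on their gene's chromosome. Values within 0.01 of an array's maximum counted as saturated, which held for 61 genes on all arrays. Testing used limma 3.58.1 in R 4.3.3 (lmFit and eBayes, additive genotype and time) over 18085 genes. Tested on simulated data for the 24 h effect over these 18085 genes (20 runs, 200 changed genes a run), the fit found 0.1% of shifts of 2 log2 units and 20.4% of shifts of 4, while 5.09% of the genes left alone passed an unadjusted p of 0.05. Medians and counts used Python 3.11.15 with pandas 2.3.3 and numpy 2.4.6.

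Scalings, filters, the probe-set rule and the baseline array were varied, as the closing section gives. Genes were named by rule: complex II, Cyc1, Cycs and the complex IV isoforms always, the 3 highest and 3 lowest of a complex in each contrast, and those past 2-fold, while others are named as examples of their role. The members and gene lists were chosen with earlier results of these data known.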

Additional observations from a re-analysis of the deposited data

Results flagged for a closer look

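For 12 of the 93 genes the single YAP-KO pair and the single wildtype pair differed in opposite directions at 24 h, each by at least 0.1 and with at least 1.5-fold between the responses. That is 12.9% of them, against 1876 (10.4%) of all 18085 genes. With 1 array per group the difference between the genotypes was not tested for any of them. The YAP-KO response minus the wildtype response was 1.40 for Ndufs8, 0.70 for Ndufa2 and 0.94 for the assembly factor Ndufaf3 in complex I, 0.62 for Sdhc in complex II, and 0.71 for Atp5l and 0.60 for Atp5j2 in complex V. It was negative in 1 gene, Cox7a2l, at -1.15. The other 5 are copies or pseudogenes, whose probe sets may also read a related transcript: 1.06 for Ndufb4b, 1.05 for Ndufb4c, 0.90 for Uqcrh-ps1, 0.98 for Atp5c1-ps and 0.96 for Atp5l-ps1. With arrays centred on probe-set medians the values of Sdhc and Atp5j2 were 0.57 and 0.55, under 1.5-fold. The probe set used for Atp5l is placed on chromosome 5, and its value was 0.41 on the probe set of the gene's own chromosome 9 and 0.32 with the mean of its probe sets. In the 11 with a positive value, the YAP-KO pair was higher at 24 h and the wildtype pair lower.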

How the results depend on the processing

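Array scaling moved more of these results than any other choice tried. After quantile normalization the YAP-KO median of all members, 24 h against 0 h, reversed to -0.01, against 0.06 for all genes. There, 2 genes were 1.5-fold lower, where 6.97% of all genes were. The complex III median was -0.10 and the complex V median 0.03. In wildtype livers the median became -0.34, against 0.02 for all genes. Of the members, 2 were higher and 24 lower (25.8%), where 14.2% of all genes were lower. Complex medians there were -0.40 (I), -0.78 (II), -0.16 (III), -0.10 (IV) and -0.40 (V). YAP-KO minus wildtype at 24 h became 0.28 over all members, against 0.05 for all genes. It was 0.36 for complex I, 0.13 for IV and 0.30 for V. Complex II at 0 h became -0.04 and the complex IV response difference 0.11.

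With arrays centred on their probe-set medians, 0 genes were 1.5-fold lower in YAP-KO livers at 24 h, where 4.46% of all genes were. In wildtype livers the median was -0.01, against 0.22 for all genes, with 6 genes lower (6.45%), where 9.05% of all genes were. Complex medians there were -0.10 (I), -0.52 (II), 0.10 (III), 0.23 (IV) and -0.03 (V).

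With arrays centred on medians over the genes kept, a setting chosen after seeing the data, the YAP-KO median at 24 h reversed to -0.05. The median of all genes was -0.08. There, 3 genes were higher and 4 lower (4.3%), where 9.45% of all genes were lower. Complex medians were -0.15 (I), -0.24 (II), -0.14 (III), -0.09 (IV) and 0.07 (V). In wildtype livers the median was -0.44, against -0.21 for all genes. Of the members, 1 was higher and 29 lower (31.2%), where 22.6% of all genes were lower. Complex medians there were -0.53 (I), -0.95 (II), -0.33 (III), -0.20 (IV) and -0.46 (V). YAP-KO minus wildtype at 24 h was 0.25, against 0.10 for all genes, with 11 genes higher. It was 0.35, 0.43, 0.11, 0.12 and 0.30 for complexes I to V. The response difference was 0.32, against 0.12 for all genes, with 23 genes above and 1 below (1.08%), where 12.9% of all genes were below. It was 0.42, 0.61, 0.21, 0.14 and 0.39 for complexes I to V. Shares of all genes 1.5-fold higher were not counted under these scalings.

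With the other genotype's 0 h array as baseline, YAP-KO at 24 h had 2 genes lower, where 8.4% of all genes were. Its medians were -0.33 for complex II and 0.02 for V. Wildtype had 4 genes lower, where 9.82% of all genes were, and medians of -0.52 for II and -0.03 for V. Over all members the median was then 0.00 in YAP-KO and -0.07 in wildtype livers, against 0.04 and 0.10 for all genes. With the mean of a gene's probe sets, the YAP-KO complex V median was 0.11. Without pseudogenes and copies, also chosen after seeing the data, 3 genes were higher in YAP-KO at 24 h, where 8.19% of all genes were. At 0 h 0 were lower, where 4.78% of all genes were, and 9 were above in the response difference, where 13.7% were. The cause of these changes was not tested. No filter, a 60th percentile filter, saturated or nearly saturated genes kept or left out, assembly factors and isoforms left out, the probe set on the gene's own chromosome (chosen after seeing the data) and limma with trend and robust moderation left each median within 0.1 and each count within 1.5 times. No paired analysis was possible because each group is 1 array, so the groups share fewer than 2 replicate numbers. Array number and the unknown floor limit all values.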

Other observations

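Enzymes that feed the respiratory chain differed by gene. Over 15 genes of the tricarboxylic acid cycle and pyruvate dehydrogenase the median 24 h difference was -0.17 in YAP-KO and -0.23 in wildtype livers. Of the 15, 1 was 1.5-fold higher and 1 lower in YAP-KO livers, where 13.7% and 6.02% of all genes were. Wildtype livers had 2 higher and 3 lower, where 23.7% and 11.9% of all genes were. Pdhb, of pyruvate dehydrogenase, was lower in both (-0.81 and -0.89), Suclg2, of succinyl-CoA ligase, mostly in wildtype (-0.27 and -0.89), and Idh3a (0.65 and 1.18) and Mdh2 (0.56 and 1.14) were higher in both. Citrate synthase, Cs, read 12.68 (YAP-KO 24 h), 12.15 (wildtype 24 h), 12.17 (YAP-KO 0 h) and 12.38 (wildtype 0 h), highest on the YAP-KO 24 h array.

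Of 13 genes that donate electrons to ubiquinone or make it, 1 was lower (7.69%) and none higher in YAP-KO livers, where 6.02% and 13.7% of all genes were. In wildtype livers 3 were lower (23.1%) and 2 higher (15.4%), where 11.9% and 23.7% of all genes were. Coq8a, needed for ubiquinone synthesis, read 8.17 (YAP-KO 24 h), 7.12 (wildtype 24 h), 10.01 (YAP-KO 0 h) and 10.77 (wildtype 0 h), low on both 24 h arrays. Coq9 was low on the wildtype 24 h array alone (0.05 in YAP-KO and -0.92 in wildtype livers), and Etfa, which takes electrons from fatty acid oxidation, differed by -0.54 and -1.04. Among 11 mitochondrial chaperones and proteases the medians were 0.17 and 0.41, with the protease genes Afg3l2 (-0.08 and 1.01) and Clpx (0.17 and -1.0) differing in opposite directions in wildtype livers. Over 6 mitochondrial antioxidant genes the medians were 0.28 and -0.06, and superoxide dismutase Sod2 differed by -0.38 and -0.75.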
